A study of Homo sapiens with 12 samples.

Results

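The keratin genes were followed through a FAT1 knockdown experiment in 2 established human squamous carcinoma cell lines of the head and neck, HN6 and HN30. Every row of the gene counts table whose symbol was KRT directly followed by a digit was taken, which gave 55 of 19225 rows. The keratin-associated proteins (KRTAP) and KRTDAP were left out. FAT1, the target, is an atypical cadherin. Cells of each line were transfected with a scrambled siRNA (NC), with siFAT1-1 or with siFAT1-2, and poly(A) RNA was taken 24 hours later, so that the controls had also passed through a lipid transfection. The 6 conditions were each sequenced in 2 repeats marked as separate times, which made 12 libraries (4 NC and 8 knockdown, KD). No untransfected cells were in the set, and the knockdown was transient and not a deletion. The repeats were called biological in the study's methods, with no word on whether they were separate cultures. P-values measure the spread between these repeats. Where a fit pools siRNAs or lines, that spread also holds differences between them that its terms do not cover. The sample names call the siRNAs sh1 and sh2, while the sample descriptions and the methods name siRNAs.

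Keratins are the intermediate filament proteins of epithelial cells. An acidic type I keratin pairs with a basic type II keratin, and the pairs assemble into filaments that run to desmosomes and give the cell sheet its strength. Which pairs are made follows the kind of epithelium: KRT8 and KRT18, with KRT7 and KRT19, are the simple-epithelial keratins, KRT5 with KRT14 or KRT15 marks the basal layer of stratified epithelium, and KRT6A, KRT6B, KRT6C, KRT16 and KRT17 are the stress keratins that appear in wounded or hyperproliferative epithelium. KRT4 and KRT13 belong to the upper layers of oral mucosa, KRT1 and KRT10 to those of epidermis, and KRT31 to KRT40 and KRT81 to KRT86 to hair shaft. Carcinomas of squamous origin often carry simple keratins beside the squamous ones.

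By GENCODE release 44, 28 of the 55 genes were type I and 26 type II, and KRT222 was placed in neither. The type II cluster with 27 rows, KRT18 among them as the type I exception, lay on chromosome 12 between 52168996 and 52952906, and 28 rows lay on chromosome 17 between 40654665 and 41624842 (GRCh38). Some keratins are near copies of one another, which limits how well short reads can be told apart. The coding sequences of KRT6A and KRT6B were 97.52% identical, those of KRT6A and KRT6C 97.93% and those of KRT81 and KRT86 94.15%. Of all 100-base windows in their exons, 18.2% in KRT6A, 24.4% in KRT6B, 31.4% in KRT6C, 30.3% in KRT81 and 27.6% in KRT86 occurred in another gene as well. The share was 7.12% for KRT8, 1.64% for KRT5, 0.353% for KRT17 and 0 for KRT7, KRT18, KRT19 and KRT80. The windows of 60 bases at the middle of the coding alignments show how close these copies are, with bases that differ from the first of each set in capitals.

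KRT6A: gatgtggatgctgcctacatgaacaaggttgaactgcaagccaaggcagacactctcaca
KRT6B: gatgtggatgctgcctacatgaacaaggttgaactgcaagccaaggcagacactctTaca
KRT6C: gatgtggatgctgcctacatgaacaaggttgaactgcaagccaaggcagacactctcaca
KRT81: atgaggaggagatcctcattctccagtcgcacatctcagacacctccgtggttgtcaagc
KRT86: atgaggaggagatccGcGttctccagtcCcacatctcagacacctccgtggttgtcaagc

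KRT6A and KRT6C were identical over this window, KRT6B differed at 1 base, and KRT86 differed from KRT81 at 3 bases. KRT81 also lies inside the KRT86 locus on the opposite strand (5622 shared bases), KRT7 and KRT86 overlap on the same strand by 2887 bases, and KRT8 and KRT18 overlap on opposite strands by 1084 bases. Whether reads were counted by strand was not given in the sources used here. Values for KRT6B, KRT6C and KRT86, the scarcer members of these sets, are therefore uncertain, since reads of KRT6A or KRT81 could be counted to them.

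The promoters of KRT5 and KRT8, a basal and a simple keratin whose RNA moved together between the siRNAs as described further on, are given from RefSeq (GRCh38.p14, minus strand, from upstream of the start to just beyond it). The KRT5 entry lies at chr12:52520345-52520644 and the KRT8 entry at chr12:52926420-52926719, and capitals mark the motif ATAAAA where it occurs. The KRT5 entry spans the upstream end of its annotated gene at 52520530. The KRT8 entry lies inside its gene, whose upstream end is at 52949954. Which start gave the counted KRT8 RNA was not tested.

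KRT5 promoter: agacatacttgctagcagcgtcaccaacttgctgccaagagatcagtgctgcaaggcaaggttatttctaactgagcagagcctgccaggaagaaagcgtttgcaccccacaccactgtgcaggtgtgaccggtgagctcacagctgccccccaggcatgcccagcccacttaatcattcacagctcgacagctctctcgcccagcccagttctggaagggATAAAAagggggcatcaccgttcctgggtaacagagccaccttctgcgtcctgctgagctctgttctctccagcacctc
KRT8 promoter: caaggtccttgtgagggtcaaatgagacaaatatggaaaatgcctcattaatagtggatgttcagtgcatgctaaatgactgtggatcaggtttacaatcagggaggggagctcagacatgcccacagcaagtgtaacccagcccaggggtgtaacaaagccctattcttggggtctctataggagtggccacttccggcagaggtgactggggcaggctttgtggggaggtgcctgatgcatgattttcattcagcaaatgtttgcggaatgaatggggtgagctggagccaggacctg

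Motifs were searched on both strands. The TATA-box form TATAAA was in 21 of 38 promoter entries for 34 of the keratins, where 11.5% of all 35116 promoters held it. Its variant ATAAAA, which overlaps it by all but the first base, was in 23 of the 38, against 16% of all. The palindrome GCCNNNGGC, recognised by AP-2 factors, was in 5 of the 38, against 23.2% of all. The KRT5 entry held the variant once and neither of the other motifs, and the KRT8 entry, which lies inside the gene, held none of the 3. These matches are a description of letters and not of bound sites. KRT6A, KRT7, KRT17, KRT18, KRT19 and KRT81 had no entry.

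The libraries held 26430049 to 47639010 counts, so that 3 counts corresponded to 0.0678 to 0.112 CPM (counts relative to library size, scaled by the trimmed mean of M-values, TMM), and keratins took 0.721% to 1.93% of all counts. FAT1 fell with both siRNAs in both lines: in HN6 it was 56.9 and 66.9 CPM in NC, 7.59 and 13.5 with siFAT1-1, and 13.2 and 21.4 with siFAT1-2. In HN30 it was 13.6 and 14.7, 4.84 and 6.24, and 10.8 and 7.77 CPM. The pooled change was −1.59 on the log2 scale (SE 0.31, adjusted p = 0.0404 by the quasi-likelihood test of edgeR, Benjamini-Hochberg adjusted over all genes), and −1.61 with adjusted p = 0.0757 when the repeat number entered as a block. It kept adjusted p under 0.05 in 1 of the 12 fits that each left out a library, with adjusted p from 0.0241 to 0.124. All 10 squamous epithelial markers were measured, with summed levels of 3306 to 5982 CPM in HN6 and 2522 to 4150 CPM in HN30. Fibroblast markers summed to 69.4 to 163 CPM in HN6 and 12.97 to 49.9 in HN30, and immune markers to 71.4 to 123 and 24.4 to 36.1 CPM. Endothelial markers summed to at most 7.85 CPM, melanocyte markers to at most 3.99 with TYR at 0, and muscle markers to at most 2.02 with MYH2 at 0. In bulk RNA, fewer cells of a type and less RNA per cell cannot be told apart.

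Of the 55 keratins, 44 had a count in some library, 11 were at 0 in all of them, KRT1 included, and 16 had 1 to 12 counts in total. A filter on low counts passed 22, and the other 33 were not tested in the fits over all libraries. KRT4, the mucosal partner of KRT13, had 4 counts in a single library and did not pass. The largest totals among those that did not pass were 95 counts for KRT222, 87 for KRT85 and 41 for KRT79, which were named after their values were seen. Of the epidermal suprabasal and the hair root sheath keratins, 2 of 5 and 0 of 9 were tested.

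The repertoire of HN6 was a simple-epithelial one. Divided by exon length, so that genes can be set against each other, the leading NC levels in HN6 were KRT18 with 1085 CPM per kb, KRT81 with 904, KRT8 with 785, KRT7 with 733, KRT19 with 341 and KRT5 with 218. In HN30, KRT81 came first with 2605 CPM per kb, followed by KRT18 with 582, KRT8 with 392, KRT80 with 245 and KRT5 with 158. The lengths here join all annotated exons of a gene. With the length of 1 representative transcript instead, KRT8 became the highest in HN6 (3029 CPM per kb, against 2357 for KRT18) and remained behind KRT81 in HN30 (1511 against 2605), so the order of KRT8 and KRT18 rests on the length chosen. The plot of levels by line shows each of these genes in both lines.

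**Figure D1:**
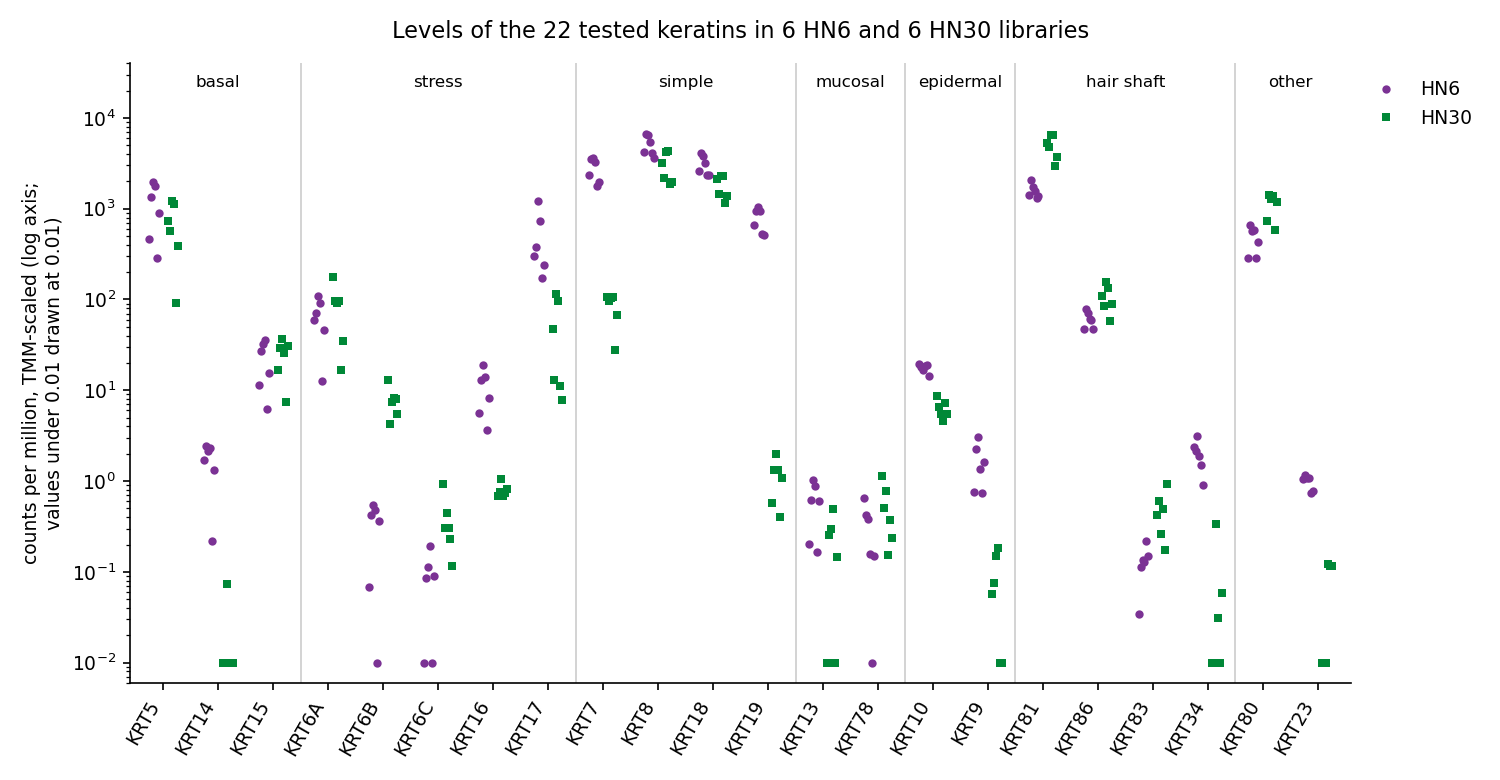
Level of each tested keratin in CPM on a log axis, with 1 point for each of the 6 HN6 and 6 HN30 libraries and values under 0.01 drawn at 0.01. KRT19 and KRT7 show the widest gaps among abundant keratins, with HN6 at 512 to 1039 and 1778 to 3640 CPM against 0.403 to 2.01 and 27.8 to 106 CPM in HN30.

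Simple keratins held a median of 65.7% of the summed keratin level per kb in HN6 (range 63.0 to 69.0 over 6 libraries) and 25.4% in HN30 (21.2 to 27.2). Hair shaft keratins, nearly all of it KRT81, held 21.6% in HN6 and 63.0% in HN30. Basal keratins held 6.57% and 3.93%, and stress keratins 3.38% and 1.14%. With the representative transcript lengths the simple share was 79.7% in HN6 and 47.9% in HN30, and the hair shaft share 9.91% and 41.6%. By these medians over all treatments, the direction between the lines was the same under both lengths for these 4 groups. The basal shares overlapped between the lines, at 2.40% to 9.30% in HN6 and 0.969% to 5.50% in HN30. In NC alone and by representative lengths, the basal share was 4.09% in HN6 and 4.97% in HN30, the other direction. Type I keratins made up 36.1% of the level in HN6 and 14.7% in HN30, and 33.6% and 21.1% by representative lengths, so by RNA the type II keratins were in excess in both lines.

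**Figure D2:**
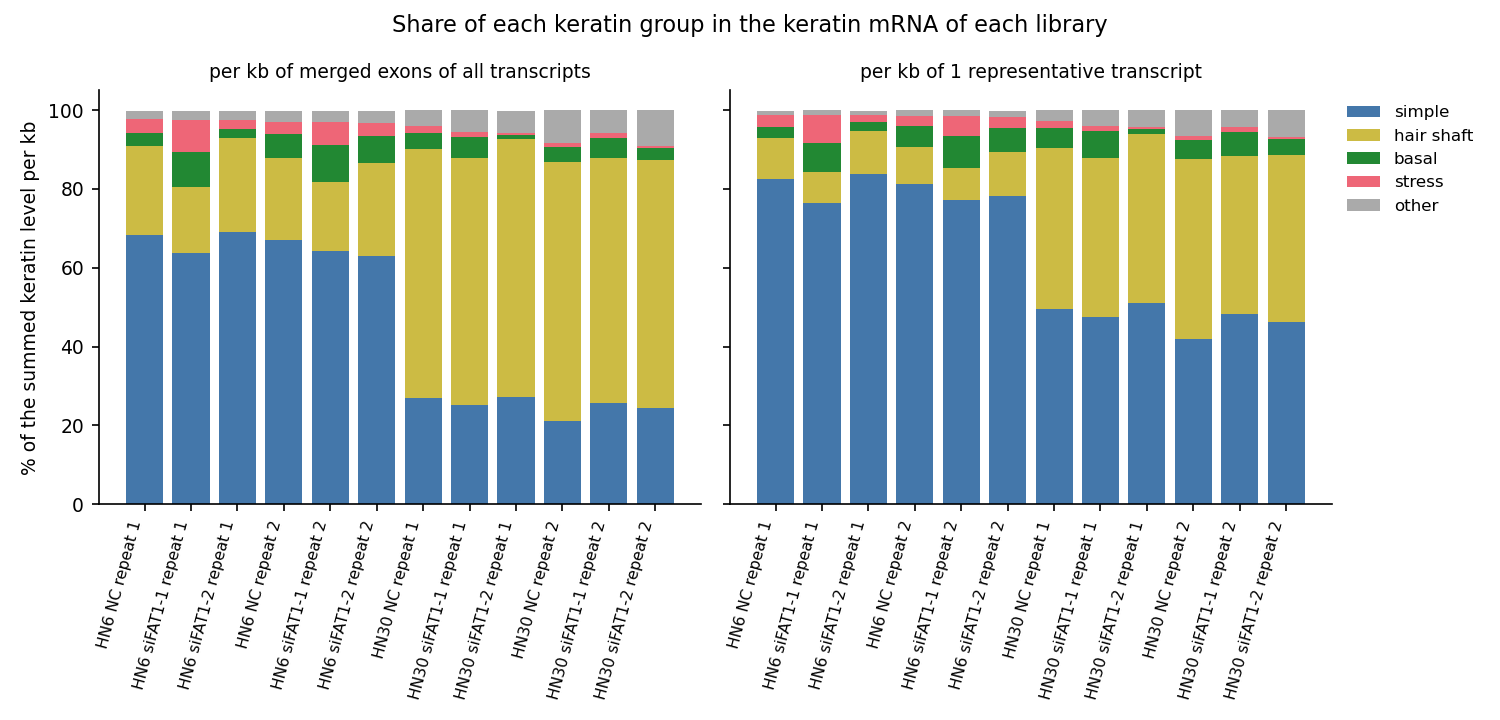
Percent of the summed keratin level per kb taken by each keratin group in each of the 12 libraries, by merged exon length (left) and by representative transcript length (right), with groups too small to see not drawn. Simple keratins fill the largest part of every HN6 bar in both panels, and hair shaft keratins fill 62.2% to 65.6% of the HN30 bars on the left and 40.1% to 45.7% on the right.

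The partner genes kept different balances. KRT8 and KRT18, which pair with each other, stood at a KRT8 to KRT18 ratio per kb of 0.695 to 0.781 in HN6 and 0.634 to 0.825 in HN30, so this ratio moved little over the 12 libraries. By representative transcripts it was 1.23 to 1.39 and 1.13 to 1.46, above rather than below 1. The basal pair did not: in HN6, KRT5 stood at 148 to 714 times the level of KRT14 per kb, and in HN30 KRT14 had 2 counts in all 6 libraries together. KRT17, another type I keratin, was closer to KRT5, with a KRT5 to KRT17 ratio of 1.11 to 2.71 in HN6 and 5.86 to 35.4 in HN30.

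Which keratins separate the lines was tested over all 12 libraries with the treatment as a term. The lines differed widely over the whole transcriptome, so the keratins are read against that background: 18 of 22 passed adjusted p under 0.05, 12 higher in HN6 where 28.8% of all genes were, and 6 lower in HN6 where 28.2% were. By the thresholds of the study (a raw P under 0.05 with a log2 change beyond 1 in either direction), 15 of 22 were called, 10 higher and 5 lower, against 31.7% of all genes. Their median difference was 0.83 on the log2 scale, where that of all genes was 0.00. KRT13, KRT14, KRT23, KRT34, KRT6C, KRT83 and KRT9 passed the filter in 1 line only, so that their being tested goes with their being unequal. Of the 15 that passed in both lines, 7 were higher and 4 lower in HN6. The 6 HN6 and 6 HN30 libraries did not overlap for 12 of the 22, where 26.1% of all genes tested did not. Those 12 include KRT14, KRT23, KRT34 and KRT9, which passed the filter in 1 line only.

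All 4 simple keratins tested were higher in HN6 (KRT20, the intestinal member, did not pass the filter). KRT19, a type I keratin of simple and glandular epithelium, was 660 and 932 CPM in HN6 NC and 0.567 and 1.34 in HN30 NC, with 512 to 1039 over all HN6 libraries and 0.403 to 2.01 over all HN30 libraries. Its difference of 9.45 (SE 0.31, adjusted p = 9.75e-10) had the smallest p among keratins. KRT7, a type II keratin of glandular and ductal epithelium, had a median of 2804 CPM in HN6 and 100.4 in HN30, a log2 difference of 5.06 (SE 0.23, adjusted p = 9.33e-09). Neither gene's groups came near each other. KRT18 (0.80, adjusted p = 0.00057) and KRT8 (0.84, adjusted p = 0.000687) differed far less, and the KRT8 values of the lines overlapped.

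Within the basal group the members parted. KRT14 had 354 counts over the 6 HN6 libraries, at 0.221 to 2.43 CPM, against 2 counts over those of HN30, a ratio of 172 (95% counting interval 47.2 to 1423). KRT5 did not pass (0.82, SE 0.38, adjusted p = 0.083), with 289 to 1983 CPM in HN6 and 90.5 to 1220 in HN30, and KRT15 did not either (−0.32, adjusted p = 0.48). KRT5 and KRT15 levels overlapped widely between the lines.

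The stress keratins went both ways. KRT17 (3.70, SE 0.34, adjusted p = 2.6e-06) ran from 171 to 1221 CPM in HN6 and from 7.86 to 114 CPM in HN30, and KRT16 (3.62, adjusted p = 3.53e-06) from 3.67 to 18.8 and from 0.677 to 1.04. Both lay higher in every HN6 library. KRT6B (−4.69, adjusted p = 3.1e-05) and KRT6C (−2.22, adjusted p = 0.0145) were lower in HN6. KRT6A, the most abundant of its 3 near copies, did not pass (−0.26, SE 0.33, adjusted p = 0.52), at 12.8 to 108 CPM in HN6 and 16.9 to 176 in HN30. KRT6B stayed at or below 0.542 CPM in HN6 where KRT6A was 12.8 to 108 CPM. Summed over the 3 near copies the difference was −0.44 (adjusted p = 0.241).

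KRT81, a hair shaft keratin, was 1318 to 2054 CPM in HN6 and 2967 to 6493 CPM in HN30, a difference of −1.60 (SE 0.14, adjusted p = 2.48e-06). Its near copies KRT86 (−0.74, adjusted p = 0.00393) and KRT83 (−1.87, adjusted p = 0.00697) were lower in HN6 too, at about 60.1 and 0.131 CPM there by the median. KRT34, a type I hair keratin, went the other way (5.10, adjusted p = 9.48e-05), with 0.906 to 3.12 CPM in HN6 and 12 counts in all of HN30. KRT80, found in several epithelia, was lower in HN6 (−1.24, SE 0.24, adjusted p = 0.00091), with medians of 501 and 1245 CPM. The scarce KRT9 (4.55), KRT23 (4.05) and KRT13 (1.68, adjusted p = 0.0493) were higher in HN6. KRT13 did not keep adjusted p under 0.05 in 9 of the 12 fits that left out a library (up to 0.114, without HN6 NC repeat 2) and in 2 other alternatives (up to 0.108). KRT10, the epidermal suprabasal type I keratin, was 14.5 to 19.5 CPM in HN6 and 4.58 to 8.58 in HN30 (2.82-fold, adjusted p = 1.58e-05). KRT78 did not pass (adjusted p = 0.159).

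**Figure D3:**
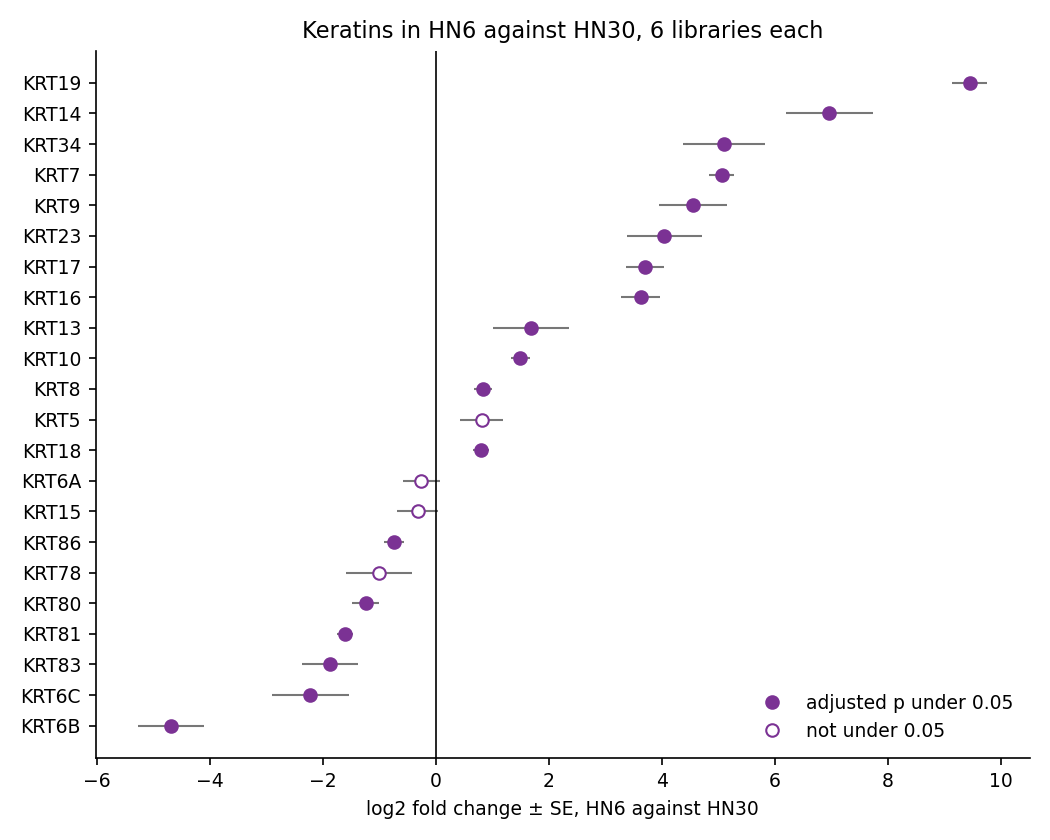
Log2 difference between HN6 and HN30 for each of the 22 tested keratins, ordered by size, with bars of 1 standard error. KRT19 (9.45) stands at the top and KRT6B (−4.69) at the bottom, and KRT5, KRT15, KRT6A and KRT78 did not pass adjusted p under 0.05.

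The comparison the study was designed for sets the 8 KD libraries against the 4 NC libraries with the line as a term. By edgeR 0 of 22 keratins were called, where 3.07% of all genes were, and 0 passed adjusted p under 0.05 (0.547% of all genes). An unadjusted p under 0.05 held for 0 keratins and for 2016 of 13887 genes. The median keratin change was 0.04 on the log2 scale and that of all genes 0.02. The smallest p among keratins was that of KRT78, a mucosal keratin, at −1.32 (SE 0.62, adjusted p = 0.352). DESeq2 called it, and so did limma-voom, the method named by the study, and the fit with the repeat number as a block. Each of these made 1 call, and none of them gave KRT78 an adjusted p under 0.05. KRT8 at 0.03 (SE 0.27), KRT18 at −0.09 (SE 0.23) and KRT5 at 0.29 (SE 0.61) had estimates smaller than their errors, and KRT17 was at 0.85 (SE 0.73). All KD libraries lay on 1 side of the NC libraries in both lines for 0 of 22 keratins, where this held for 5.47% of all genes. The 2 siRNAs are pooled here, and they moved keratins apart, as the next comparisons show. The errors of this fit therefore also hold the difference between the siRNAs. For KRT17 the SE was 0.73 here and 0.38 for each siRNA against NC.

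Each siRNA was then set against NC. Both comparisons share the 4 NC libraries, so their values are given side by side and not as independent results. With siFAT1-1, 1 of 22 keratins was called (5.58% of all genes) and it also passed adjusted p under 0.05 (3.25% of all genes), and the median keratin change was 0.38 where that of all genes was −0.00. With siFAT1-2, 4 of 22 were called, all lower, where 660 of 13887 genes were called lower (9.06% were called in either direction). Adjusted p under 0.05 held for 2 keratins, both lower, and for 1037 genes in that direction (11.8% of all genes in either). The median keratin change was −0.51 where that of all genes was −0.00. KRT17 was the keratin that rose with siFAT1-1 (1.67, SE 0.38, adjusted p = 0.0324), and with siFAT1-2 it was at −1.15 (SE 0.38, adjusted p = 0.0658). With the repeat number as a block, siFAT1-1 made 3 calls, KRT13, KRT17 and KRT5. The adjusted p of KRT17 with siFAT1-1 rose above 0.05 without any of 6 of the 12 libraries, namely both HN30 siFAT1-1 repeats, HN30 NC repeat 2, HN6 siFAT1-1 repeat 1 and both HN6 NC repeats, and was at most 0.127.

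KRT6A (−1.82, SE 0.41, adjusted p = 0.0169) and KRT7 (−0.88, SE 0.23, adjusted p = 0.0334) were the keratins that fell with siFAT1-2 by adjusted p, and with siFAT1-1 they were at 0.00 and 0.14. KRT78 (−1.96, adjusted p = 0.0987) and KRT5 (−1.02, adjusted p = 0.168) were called by unadjusted P alone. Summing the near copies KRT6A, KRT6B and KRT6C gave −1.69 (adjusted p = 0.0171). Without HN30 siFAT1-2 repeat 1 the adjusted p of KRT6A was 0.0511, KRT7 did not pass in 7 of the 12 fits that left out a library, and without HN30 NC repeat 1 the number of calls fell to 1.

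**Figure D4:**
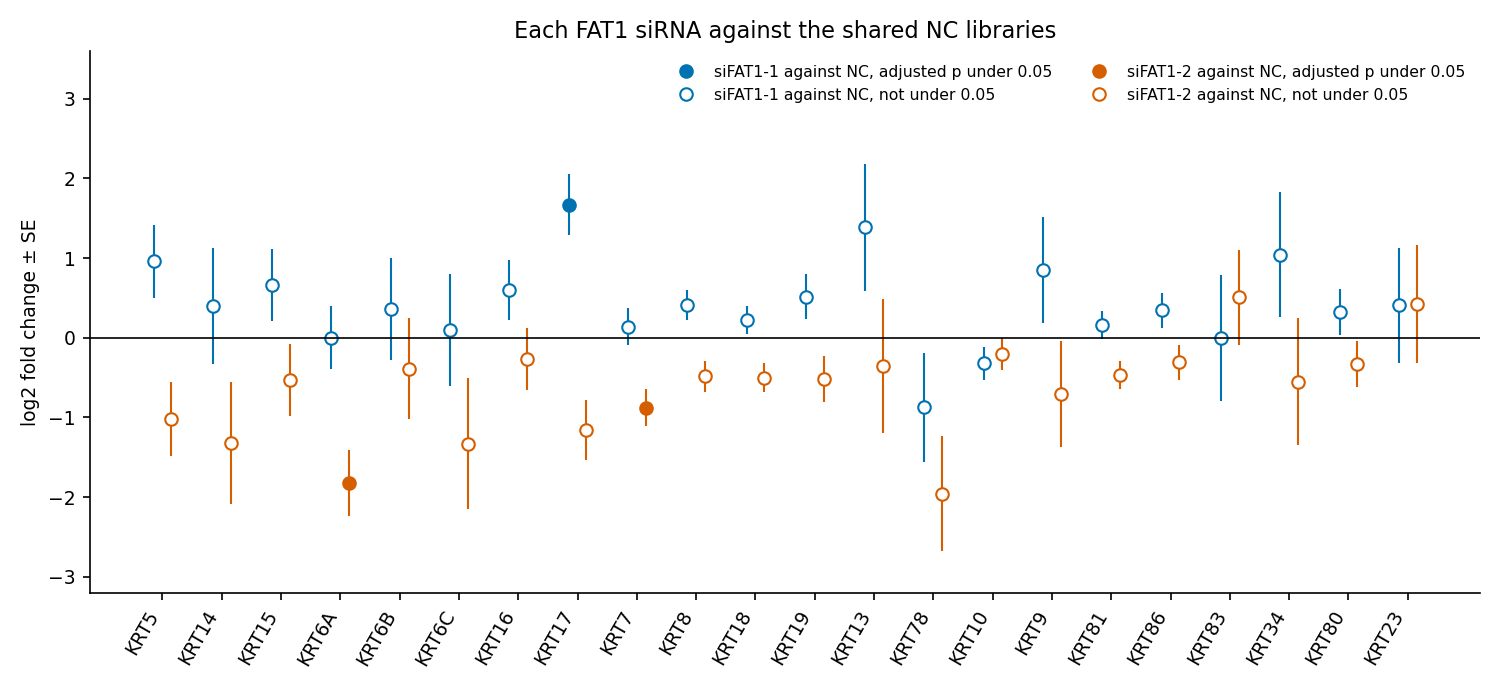
Log2 change against NC of each tested keratin with siFAT1-1 and with siFAT1-2, both against the same 4 NC libraries, with bars of 1 standard error. KRT17 lies at 1.67 with siFAT1-1 and −1.15 with siFAT1-2, and KRT6A at 0.00 and −1.82.

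The direct comparison of the 2 siRNAs sets their levels against each other and not against NC. The NC libraries were still part of the fit, so its errors and p-values depend on them. Keratins were higher with siFAT1-1 than with siFAT1-2: 8 of 22 passed adjusted p under 0.05 in that direction (10% of all genes) and 0 in the other (7.39% of all genes). The thresholds of the study called 8 as well, all higher, where 1010 of 13887 genes were called higher (12.4% were called in either direction). An unadjusted p under 0.05 held for 14 of 22 keratins and for 4700 of 13887 genes. The median difference was 1.02 on the log2 scale, where that of all genes was −0.02. Both siFAT1-1 libraries lay above both siFAT1-2 libraries in both lines for 12 of 22 keratins, where this held for 17.9% of all genes. The 8 were 4 simple keratins, KRT7, KRT8, KRT18 and KRT19, the basal KRT5, the stress keratins KRT6A and KRT17, and the hair shaft keratin KRT81. By group, 4 of 4 simple, 2 of 5 stress, 1 of 3 basal and 1 of 4 hair shaft keratins passed, with median differences of 0.96, 1.42, 1.72 and 0.64. The 2 mucosal and 2 epidermal suprabasal keratins tested did not pass.

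KRT17, a stress keratin also made by basal-like cells, was 302 and 381 CPM in HN6 NC, 1221 and 724 with siFAT1-1 and 171 and 240 with siFAT1-2. In HN30 it was 47.8 and 13.1 CPM, 114 and 95.8, and 11.2 and 7.86. Both siFAT1-1 libraries were above both NC libraries, and both siFAT1-2 libraries below them, in each line, and the difference between the siRNAs was 2.82 (SE 0.40, adjusted p = 0.00145).

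KRT5, the basal type II keratin, was 462 and 1336 CPM in HN6 NC, 1983 and 1792 with siFAT1-1 and 289 and 895 with siFAT1-2. In HN30 it was 738 and 572 CPM, 1220 and 1136, and 90.5 and 384. The siFAT1-1 libraries were the highest in each line, both siFAT1-2 libraries lay below NC in HN30 but only 1 of them did in HN6, and the difference was 1.98 (SE 0.48, adjusted p = 0.0162). Repeats of NC and siFAT1-2 in HN6 differed severalfold from each other.

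KRT6A was 59.96 and 71.5 CPM in HN6 NC, 108 and 92.2 with siFAT1-1 and 12.8 and 45.6 with siFAT1-2, and in HN30 176 and 95.9 CPM, 91.3 and 97.0, and 16.9 and 34.6. The siFAT1-2 libraries were the lowest in both lines, with a difference of 1.82 between the siRNAs (SE 0.40, adjusted p = 0.0111), and 1.73 (adjusted p = 0.0107) for the summed near copies. siFAT1-1 lay above NC in HN6 and at the lower end of NC in HN30.

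KRT7 was 2360 and 3499 CPM in HN6 NC, 3640 and 3247 with siFAT1-1 and 1778 and 1946 with siFAT1-2. In HN30, where the gene was low, it was 106 and 97.3 CPM, 103 and 106, and 27.8 and 67.0. In both lines siFAT1-2 lay below NC, siFAT1-1 lay within or near the NC values, and the difference was 1.02 (SE 0.23, adjusted p = 0.0137). KRT19, its usual companion, differed by 1.03 (SE 0.29, adjusted p = 0.0305), with 1039 and 935 CPM with siFAT1-1 and 528 and 512 with siFAT1-2 in HN6, on either side of NC at 660 and 932.

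The pair KRT8 and KRT18 moved together. KRT8 was 4196 and 6612 CPM in HN6 NC, 6560 and 5364 with siFAT1-1 and 4138 and 3628 with siFAT1-2, and in HN30 3199 and 2191 CPM, 4187 and 4281, and 1848 and 1966. KRT18 was 2592 and 4070, 3764 and 3217, and 2363 and 2329 CPM in HN6, and 2134 and 1438, 2291 and 2315, and 1148 and 1384 in HN30. For both genes siFAT1-2 lay below NC in both lines, and siFAT1-1 lay above NC in HN30 and within the wide NC values in HN6. The differences between the siRNAs were 0.90 for KRT8 (SE 0.19, adjusted p = 0.00957) and 0.73 for KRT18 (SE 0.18, adjusted p = 0.0173).

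KRT81 was 5265 and 4786 CPM in HN30 NC, 6493 and 6469 with siFAT1-1 and 2967 and 3675 with siFAT1-2. In HN6 it was 1432 and 2054, 1723 and 1554, and 1318 and 1396 CPM, a narrower spread. The difference was 0.63 (SE 0.17, adjusted p = 0.0288), and the same for KRT81 and KRT86 summed (adjusted p = 0.029). KRT15 (1.19, adjusted p = 0.0877), KRT9 (1.55, adjusted p = 0.128) and KRT14 (1.72, adjusted p = 0.147) were called by unadjusted P alone, and with the repeat number as a block KRT15 passed (1.46, adjusted p = 0.0274), as did KRT80. KRT10, with −0.12, and KRT23, with −0.01, were among the 8 keratins with an unadjusted p of 0.05 or more. Leaving out 1 library at a time, KRT5, KRT6A, KRT7, KRT8 and KRT17 kept adjusted p under 0.05 in all 12 fits, and 5 to 9 keratins passed. The calls fell to 3 without HN30 siFAT1-2 repeat 1.

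KRT80 did not pass (0.65, adjusted p = 0.141). In HN6 it was 284 and 657 CPM in NC, 574 and 586 with siFAT1-1 and 288 and 428 with siFAT1-2, and in HN30 741 and 1401, 1290 and 1394, and 585 and 1200 CPM, so that the NC repeats alone spanned most of the range. KRT15, a type I keratin of the basal layer and of stem cell niches, was 11.4 and 27.1 CPM in HN6 NC, 32.0 and 36.1 with siFAT1-1 and 6.16 and 15.3 with siFAT1-2. In HN30 the siRNA groups overlapped for it, at 36.9 and 26.0 CPM with siFAT1-1 and 7.37 and 30.7 with siFAT1-2. KRT16, the usual partner of KRT6A, was 18.8 and 14.0 CPM with siFAT1-1 and 3.67 and 8.24 with siFAT1-2 in HN6, and no library of HN30 exceeded 1.04 CPM. KRT10 varied less than these, from 14.5 to 19.5 CPM in HN6 and from 4.58 to 8.58 in HN30 over all treatments.

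**Figure D5:**
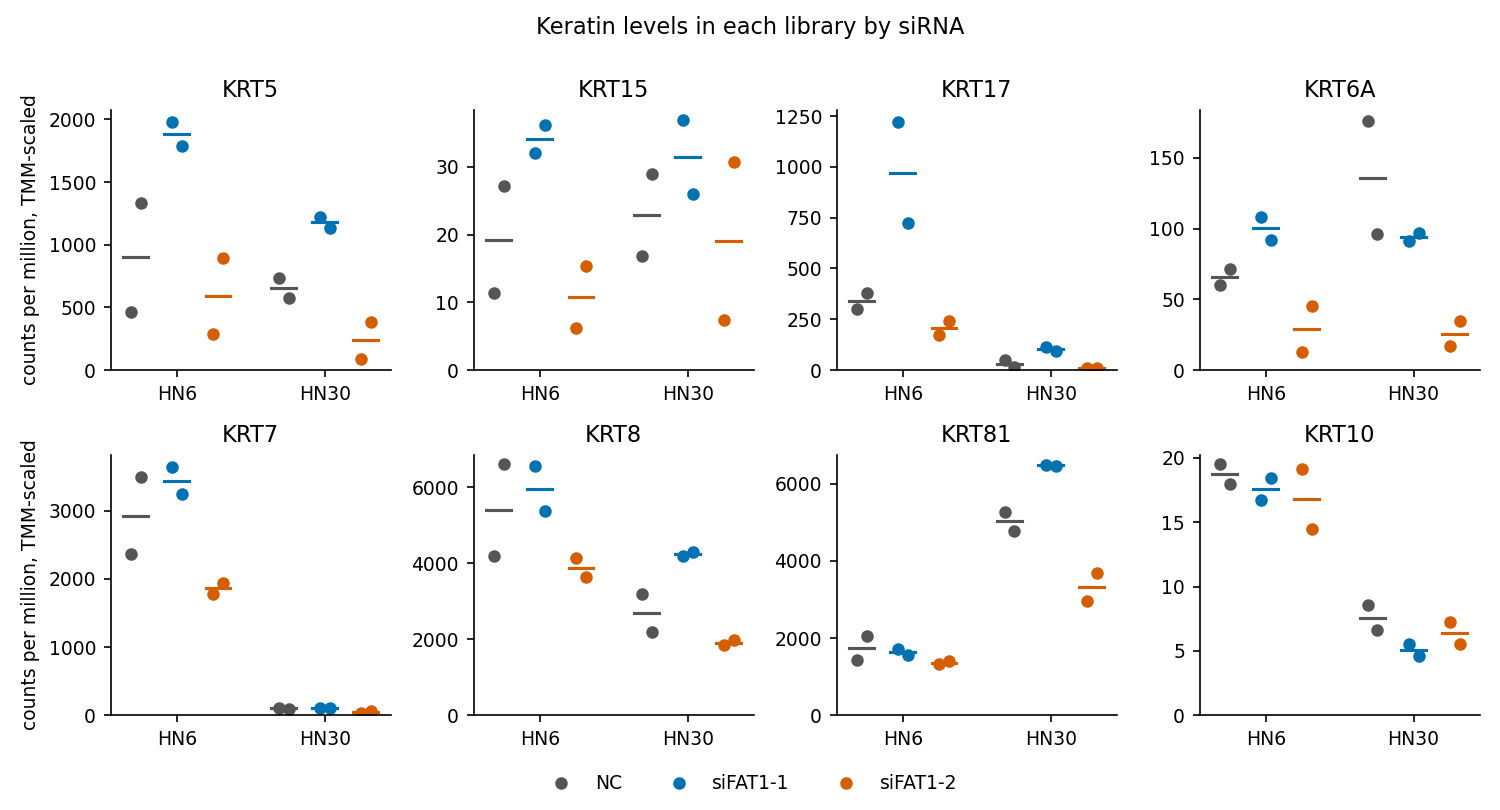
CPM from 0 on a linear axis of leading keratins, 1 panel per gene, grouped by line and siRNA, with 1 point per library and a line at each mean. For KRT17 and KRT5 the siFAT1-1 points lie above the siFAT1-2 points in both lines, as 1221 and 724 against 171 and 240 CPM for KRT17 in HN6.

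Other values moved with the siRNAs as well. Squamous markers summed to 3888 to 5982 CPM with siFAT1-1, 2772 to 4183 with siFAT1-2 and 2522 to 3868 in NC, and 4 of 10 were higher (10% of all genes) and 1 lower (7.39% of all genes) with siFAT1-1 by adjusted p under 0.05. Endothelial markers summed to 2.83 to 7.85 CPM with siFAT1-1, 0.202 to 1.75 with siFAT1-2 and 0.595 to 4.69 in NC. The 2 of 3 tested, VWF (2.00, adjusted p = 0.0095) and CDH5 (3.66, adjusted p = 0.0177), were higher with siFAT1-1. Fibroblast markers summed to 41.1 to 112 CPM with siFAT1-1, 32.0 to 163 with siFAT1-2 and 12.97 to 74.8 in NC. FAT1 itself was lower with siFAT1-1 than with siFAT1-2 by unadjusted P alone (−0.73, SE 0.31, adjusted p = 0.119). The part of these values in the keratin differences was not tested.

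Within single lines the KD comparison called no keratin. In HN6, 0 of 21 were called (3.08% of all genes) and in HN30 0 of 18 (4% of all genes), and by edgeR no gene of any kind passed adjusted p under 0.05 in either line. DESeq2 and limma-voom called 0 keratins as well, and DESeq2 gave 68 genes in HN6 and 201 in HN30 an adjusted p under 0.05, none of them a keratin. The count of keratins at an unadjusted p under 0.05 by edgeR was 0 in both lines, where 779 of 13626 genes in HN6 and 1265 of 13602 in HN30 had one. In HN30 KRT6A had the smallest p (−1.18, SE 0.64, adjusted p = 0.617), and it was called without siFAT1-1 repeat 2 of that line. Whether the KD effect differed between the lines was tested as an interaction of line and KD. It called KRT23 (−4.97) and KRT34 (−5.10), 2 of 22 where 1.79% of all genes were called, and both had an adjusted p of 1. Both genes had 0 counts in the HN30 NC libraries, so that the size of these estimates depends on the prior count and is no bound. With the repeat number as a block KRT23 was the only keratin called. Without the block the interaction also called FAT1 itself (−1.22, SE 0.56). FAT1 was at −2.11 (SE 0.40) in HN6 and at −0.94 (SE 0.35) in HN30. The part of this smaller change in the HN30 keratin result was not tested.

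Of the 12 linker genes that hold keratin filaments in place, at desmosomes, hemidesmosomes and in the filament network, 0 were called in KD against NC, where 3.07% of all genes were, with a median change of 0.05. Between the siRNAs 6 of 12 were higher with siFAT1-1 by adjusted p under 0.05 (10% of all genes) and 0 lower (7.39% of all genes), and the other 6 did not pass. The median difference was 0.65. PKP1 and JUP are also among the squamous markers given above, so the counts of these lists are not separate results. PKP1, a desmosomal plaque protein, differed by 1.72 (SE 0.26, adjusted p = 0.0018), and EPPK1, epiplakin, by 1.32 (SE 0.20, adjusted p = 0.00216). PKP3 (1.28, adjusted p = 0.00362) and PLEC, plectin, which ties keratins to hemidesmosomes (0.83, adjusted p = 0.0071), were also higher and were named after their values were seen. Against NC, PKP1 was at −1.69 with siFAT1-2 (adjusted p = 0.00335) and 0.04 with siFAT1-1, and EPPK1 at 1.40 with siFAT1-1 (adjusted p = 0.00435) and 0.08 with siFAT1-2. TCHP, trichoplein, was at −0.88 with siFAT1-1 (adjusted p = 0.0453), the other linker past adjusted p under 0.05 with that siRNA, and at −0.63 with siFAT1-2 (adjusted p = 0.0733). Between the lines 3 of the 12 were higher in HN6 (28.8% of all genes) and 5 lower (28.2% of all genes), among them TCHP (1.14) and PKP1 (1.18) higher and FAM83H (−1.17) and EPPK1 (−1.47) lower.

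Among 16 other intermediate filament genes 8 were tested, and 2 were called in KD against NC, where 3.07% of all genes were. NES, nestin, was at 1.41 (SE 0.31, adjusted p = 0.0635), and VIM at −1.02 (SE 0.36, adjusted p = 0.225). VIM, the vimentin gene of mesenchymal cells, was 277 to 1550 CPM in HN6 and 0.461 to 2.18 in HN30 (9.33, SE 0.43, adjusted p = 1.12e-08). Of 20 transcription factors linked to keratin genes, 19 were tested and 0 called in KD against NC (3.07% of all genes). Between the siRNAs 3 of 19 were higher with siFAT1-1 by adjusted p under 0.05, where 10% of all genes were: TFAP2A, the gene of AP-2 alpha, by 0.67, STAT3 by 0.62 and OVOL1 by 1.10, the last pair named after their values were seen. Between the lines 4 of 19 were higher in HN6 and 6 lower, where 28.8% and 28.2% of all genes were. TP63, the master regulator of stratified epithelium, was 27.7 to 61.1 CPM in HN6 and 105 to 276 in HN30 (−2.26, SE 0.26, adjusted p = 1.78e-05). PITX1 (−1.74) and ZNF750 (−2.57) were lower in HN6 as well, and TFAP2A (1.11) was higher.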

How the data were processed

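Gene expression was measured by poly(A) RNA sequencing. The authors deposited a table of raw counts per gene, not normalized, on hg38, for which the submitters' processing notes name HISAT2 and featureCounts. Their versions, the annotation and the strand setting were not given in the sources used here. Counts of all 19225 genes were analysed with edgeR 4.0.16 in R 4.3.3: TMM scaling, filterByExpr with a minimum count of 10, and quasi-likelihood tests with the cell line as a term (or the treatment, for HN6 against HN30), adjusted by Benjamini-Hochberg over all genes tested. Thresholds of the study (P under 0.05, absolute log2 fold change above 1) defined calls. Levels are TMM-scaled CPM, divided by GENCODE 44 exon length between genes. Intervals and the limit of 3 counts cover counting error only. The code was tested on simulated data.

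Repeats of a condition differed by more than counting noise (chi-square per degree of freedom 12.99 to 211). The labels mark the repeat number as a time, which pairs the samples of a line. Correlations of same-numbered deviations were 0.0778, 0.219 and 0.242 in HN6 and −0.0337, 0.405 and −0.0216 in HN30. The study's methods name no block, so the blocked fit is an alternative.

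Always named were KRT1, KRT4 to KRT8, KRT6A to KRT6C, KRT10, KRT13 to KRT19, then any keratin past a threshold in a comparison or with a mean of at least 10 CPM, and of each partner list at most 4 called genes per comparison of KD with NC or of the lines. Members and lists were chosen with earlier results of these data known. Alternatives were DESeq2 1.42.0 size factors and its Wald test, limma-voom (limma 3.58.1), no filter, a stricter filter (1 CPM in 4 libraries, 2 within a line), the repeat block, no line term, NC libraries alone for the lines, representative transcript lengths, and leaving out each library. Sums of near copies (KRT6A with KRT6B and KRT6C, and KRT81 with KRT86) were added after the data were seen.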

Additional observations from a re-analysis of the deposited data

Results flagged for a closer look

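The effects of the 2 siRNAs differed for 8 keratins by the direct test between them (edgeR, adjusted p under 0.05): on the log2 scale KRT17 by 2.82, KRT5 by 1.98, KRT6A by 1.82, KRT19 by 1.03, KRT7 by 1.02, KRT8 by 0.90, KRT18 by 0.73 and KRT81 by 0.63, each higher with siFAT1-1. For all 8, both siFAT1-1 libraries lay above both siFAT1-2 libraries in each line, where this held for 17.9% of all genes. The 8 were picked by a test on these same libraries, so this order is no separate support. In the same comparison FAT1 was at −0.73 (adjusted p = 0.119).

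Among the 6 HN30 libraries, siFAT1-1 repeat 1 was flagged as apart from the others for 2 scarce keratins. For KRT34 it held 0.335 CPM (9 counts), with the next library at 0.0584 CPM, and this gap was 0.826 of the whole range. For KRT14 it held 2 counts (0.0745 CPM) and the other libraries 0, so the gap was 1 times the range. Of 44 groups of 6 libraries looked at, these 2 were found. The rule nominally sets apart about 1 group in 20 by chance, a rate that was not measured here and need not hold for counts this low.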

How the results depend on the processing

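With the repeat number as a block, KD against NC called 1 keratin (KRT78), siFAT1-1 against NC 3 and the interaction 1. FAT1 in KD against NC was then −1.61. Between the siRNAs the block added KRT13 to the calls, 9 in place of 8. It also put KRT15 and KRT80 under adjusted p 0.05, with 10 keratins in place of 8. No other keratin call changed with the block. KD against NC also called 1 under the DESeq2 Wald test and limma-voom, and limma-voom called 3 in siFAT1-1 against NC and 1 in the interaction. Without a filter the interaction called 4 keratins and KD against NC in HN6 1 (KRT79), and the strict filter left 1 in the interaction. The DESeq2 Wald test put 4 keratins under adjusted p 0.05 in siFAT1-2 against NC. With NC libraries alone 10 keratins separated the lines by adjusted p, and without a line term FAT1 was −1.83. Over all genes, adjusted p under 0.05 held in KD against NC for 76 genes, 640 by DESeq2, 44 with the block and 4 without a line term (calls 426 against 231). It held for 451 genes against 1216 by DESeq2 with siFAT1-1, 1641 against 2694 with siFAT1-2, and 7907 against 1562 with NC libraries alone between the lines. With representative transcript lengths the simple share was 79.7% in HN6 and 47.9% in HN30, the hair shaft share 9.91% and 41.6%, and the share of other keratins in HN6 1.35%. In KD against NC, limma-voom turned KRT5 to −0.072, KRT15 to −0.012, KRT6B to −0.031, KRT8 to −0.014 and KRT19 to −0.085, and the fit without a line term turned KRT6B to −0.22, KRT8 to −0.014, KRT19 to −0.074, KRT34 to −0.19 and KRT23 to −0.12.

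Fits that each dropped 1 library gave FAT1 −1.77 to −1.39, 0 to 1 calls in KD against NC, in HN6 and in HN30, and 1 to 2 in the interaction. With siFAT1-1 against NC 0 to 1 keratins passed adjusted p under 0.05, with siFAT1-2 1 to 3 (1 to 5 calls), and between the siRNAs 5 to 9 (3 to 9 calls). Signs in KD against NC turned for KRT14 (−0.45 to 0.12), KRT15 (−0.023 to 0.42), KRT18 (−0.21 to 0.050), KRT19 (−0.10 to 0.25), KRT6B (−0.26 to 0.60), KRT6C (−0.81 to 0.40), KRT8 (−0.10 to 0.19), KRT80 (−0.16 to 0.29), KRT86 (−0.056 to 0.22) and KRT9 (−0.13 to 0.72), none of them called, and between the lines for KRT15 (−0.52 to 0.074). The cause of these changes was not tested. Over all alternatives, 1060 log2 values of single genes kept direction and side of the threshold, 59 no longer passed it, 11 newly passed it and 38 turned sign. Depth limits the scarce keratins: KRT13, KRT14, KRT23, KRT34, KRT6C, KRT78, KRT83 and KRT9 had at most 439 counts each over the 12 libraries.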
